A study of Mus musculus with 20 samples.

Results

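This report describes the zinc finger factors Zfp423, Zfp521 and Zfp467 and the EBF factors Ebf1, Ebf2 and Ebf3 across clonal mouse fibroblast lines. The members were all probe sets that the platform annotation assigned to these 6 symbols, 17 probe sets of 45037 that were not controls. In terms of genes they were 6 of the 18193 that had at least 1 probe set with a single symbol. RNA came from 7 lines, each of them 1 clone of Swiss 3T3, an immortalized strain of mouse embryo fibroblasts, and was hybridized to 20 oligonucleotide arrays. The 4 preadipose lines, able to become fat cells, were Swiss 2, Swiss 8, Swiss 9 (3 arrays each) and Swiss 19 (2 arrays). The 3 non-adipogenic lines were Swiss 3, Swiss 5 and Swiss 22 (3 arrays each). No line carried a stated transgene or drug, and cells of every line were taken while dividing, in DMEM with bovine serum, before any fat cell induction. The labels leave unsaid whether a line's arrays were separate cultures, so p-values made from arrays measure only their spread, which may be technical.

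Zfp423 and Zfp521 are closely related proteins with many zinc fingers, and both are known to bind EBF proteins, while Zfp423 also binds SMAD proteins of the BMP pathway. Zfp423 is known as a factor that commits fibroblasts to the fat cell lineage and raises Pparg, and Zfp521 is known to hold Zfp423 and Ebf1 in check. Zfp467 is a separate zinc finger factor that favours fat over bone formation from marrow stroma. The EBF proteins are helix-loop-helix factors that bind DNA as dimers. Ebf1 is the founding factor of the B cell lineage and also acts in fat cells, Ebf2 marks brown and beige fat precursors, and Ebf3 is found in neural and mesenchymal cells.

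Levels are given as scaled intensity, the deposited probe set intensity after each array was set to a trimmed mean of 500. A probe set was counted as above background in a line when its mean exceeded that line's control background, the 95th percentile of 27 bacterial control probe sets with no spiked target. This background lay between 76.9 in Swiss 19 and 144.4 in Swiss 2. It is a lenient bound, since 42.9% of all probe sets were above it in all 7 lines and 24.9% in none. Of 36 measured markers of other cell types, 12 (33.3%) were above it in all lines, among them Epcam, Adgre1, Krt8 and Omp. Pecam1, Ptprc, Cdh1, Itgam, Myog, Myf5, Snap25 and Olig2 were above it in none. Of 5 measured osteoblast and chondrocyte markers, 3 were above it in all lines and 0 in none. These 3 were Sox9, with line means of 427 to 1432, Sp7 and Acan. All 9 fibroblast markers were above it in every line, with a summed level of 344148 to 432645 in preadipose and 306850 to 351028 in non-adipogenic lines. The lines therefore carried the defining markers of fibroblasts, whereas a level near background says little about a factor. In bulk RNA, fewer cells with a transcript and less transcript per cell cannot be told apart.

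Array brightness was uneven and partly followed the classes. By 9 hybridization spikes there were 11 dim arrays, those of Swiss 2, Swiss 8, Swiss 9 and 2 of Swiss 3, while the 9 bright ones came from Swiss 19, Swiss 5 and Swiss 22, plus 1 of Swiss 3. Class differences within the dim arrays (3 preadipose lines against Swiss 3) and within the bright arrays are given beside those they touch. Of the differences given in this way, only that of Pdgfra passed, and only within the dim arrays.

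Of the 17 probe sets, 12 were above background in all 7 lines, 4 in some lines and 1, that of Zfp423, in none. The factors fell into 3 kinds. Zfp521 (2 of 2 probe sets), Zfp467 (3 of 3) and Ebf3 (3 of 3) were above background in every line, as were 4 of the 5 probe sets of Ebf1. All 3 probe sets of Ebf2 crossed the background between lines, and Zfp423 stayed under it. Over single arrays, 40 of 40 values were above background for Zfp521, 59 of 60 for Zfp467, 88 of 100 for Ebf1, 39 of 60 for Ebf2, 60 of 60 for Ebf3 and 1 of 20 for Zfp423.

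**Figure D1:**
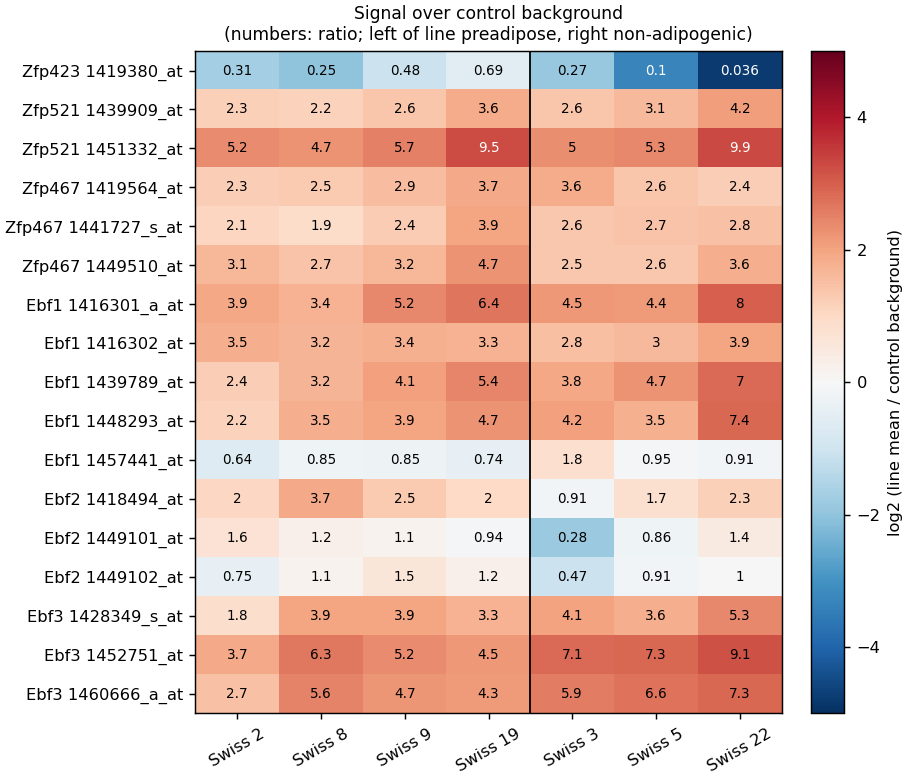
Each cell gives a line's mean scaled intensity divided by its control background, for the 17 member probe sets (rows) and 7 lines (columns, preadipose left of the vertical line); colour is the log2 of that ratio. The Zfp423 row lies under 1 in all 7 lines, the Ebf2 rows straddle 1, and the 12 probe sets above background in all lines have no cell under 1.

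Zfp423 was dim everywhere. On its only named probe set, 1419380_at, the preadipose arrays read 91.2, 35.1 and 8.20 in Swiss 2, 27.5, 9.09 and 37.4 in Swiss 8, 48.9, 57.8 and 17.6 in Swiss 9, and 22.3 and 84.1 in Swiss 19. The non-adipogenic arrays read 14.8, 42.5 and 29.3 in Swiss 3, 3.93, 12.6 and 9.79 in Swiss 5, and 3.79, 2.61 and 2.85 in Swiss 22. Only 1 array, of Swiss 19, exceeded its own background. Arrays of Swiss 22 were the lowest, arrays of Swiss 5 reached into the preadipose range and those of Swiss 3 lay within it, and replicate arrays of Swiss 2 spread over more than the gap between the classes. Line means were 41.0 ± 11.99 (SD, n = 4 lines) in preadipose and 13.6 ± 13.5 (SD, n = 3 lines) in non-adipogenic lines, and they overlapped. The log2 difference was 0.09 with a 95% interval of -0.015 to 0.19 and did not pass (limma, adjusted p = 0.494). With scaling before the pseudocount, which compresses dim values less, it was 0.65 with an interval of 0.13 to 1.17 (adjusted p = 0.371). It was 0.03 within the dim and 0.13 within the bright arrays. No fold is given, since both classes were under background.

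RefSeq (GRCm38.p6) promoter entries were used for 4 of the 6 factors. The selection left out all entries of 1 chromosome, which the shares over all windows given below did not leave out. No window of Ebf2 or Zfp521 was searched, and that rule is not offered as the reason for both. In the entries used, the 250 bases before the start were searched on both strands for 6 motifs. These were an EBF dimer site, TCCC and GGGA around NN (in 0.779% of 32851 such windows), the composite site bound by the Zfp423 zinc fingers, GCACCC and GGGTGC around NN (0.0213%), the GC box GGGCGG (32.7%), the TATA box TATAAA (12.4%), the SMAD element GGCGCC (9.59%) and the CArG box (1.47%). The upstream window of Zfp423 at chr8:87959596-87959845 (minus strand) and that of Ebf3 at chr7:137314446-137314695 (minus strand) are shown because Zfp423 was under background in every line and a probe set of Ebf3 had the largest share of its variation between the classes. A further RefSeq start of Zfp423, at chr8:87804440-87804689, is not printed, and its window was 64.8% G or C with 6 CpG pairs and 1 GC box. Both windows are printed 5′ to 3′ with motif matches in capitals.

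Zfp423: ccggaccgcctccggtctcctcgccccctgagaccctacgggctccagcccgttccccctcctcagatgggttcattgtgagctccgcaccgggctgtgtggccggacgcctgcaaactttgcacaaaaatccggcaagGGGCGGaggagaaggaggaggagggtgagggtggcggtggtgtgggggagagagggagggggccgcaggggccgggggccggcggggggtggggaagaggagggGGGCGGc

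Ebf3: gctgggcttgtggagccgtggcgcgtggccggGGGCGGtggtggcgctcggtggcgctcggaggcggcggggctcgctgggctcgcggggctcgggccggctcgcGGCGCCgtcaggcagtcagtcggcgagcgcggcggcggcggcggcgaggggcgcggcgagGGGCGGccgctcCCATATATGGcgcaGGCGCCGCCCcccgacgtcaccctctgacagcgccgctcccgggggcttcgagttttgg

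The Zfp423 window was 71.6% G or C with 18 CpG pairs, and the Ebf3 window 80.0% with 43, against a median of 6 CpG pairs over all windows. Zfp423 held 2 GC boxes. Ebf3 held 3 GC boxes, 2 SMAD elements and 1 CArG box, the last a motif added to the search after the sequence was seen. In Ebf3 a SMAD element and a GC box on the other strand overlap and are printed as 1 run of capitals. Neither the EBF dimer site nor the composite site occurred in these letters or in the windows of Ebf1 and Zfp467. A match is a description of the letters and not a bound site.

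Zfp521, the counterpart of Zfp423, was well above background and differed between lines, with no class difference that passed. On its brighter probe set, 1451332_at, arrays read 625, 873.6 and 754.1 in Swiss 2, 329.4, 552.4 and 539.1 in Swiss 8, 415.6, 532.9 and 522.3 in Swiss 9, and 740.8 and 721.8 in Swiss 19. They read 533.9, 547.3 and 517.5 in Swiss 3, 503.6, 398.7 and 460.3 in Swiss 5, and 771.8, 856.8 and 921.4 in Swiss 22. The highest and the lowest line were both non-adipogenic, with Swiss 22 at 1.87 times Swiss 5. The classes were level, at 611.5 ± 149.98 (SD, n = 4 lines) in preadipose and 612.4 ± 209.5 (SD, n = 3 lines) in non-adipogenic lines. They differed by a log2 value of 0.02 with an interval of -0.31 to 0.34 before adjustment (limma, adjusted p = 0.985). A call rested on the adjusted p, so even a class difference outside this interval could have gone uncalled. Scaling before the pseudocount gave a difference of 0.04 with a wider interval of -0.56 to 0.63 (limma, adjusted p = 0.980). That direction is not settled, since with arrays centred on their medians the difference was -0.26, while it was 0.07 within the dim and 0.15 within the bright arrays.

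Line-to-line differences in Zfp521 exceeded the spread between arrays. A moderated F test on the 20 arrays called 1451332_at over all 7 lines (limma, adjusted p = 0.00131), among the preadipose lines (adjusted p = 0.0151) and among the non-adipogenic lines (adjusted p = 0.00358). Such calls were common, at 25.2%, 15.3% and 11.1% of all probe sets. The call among preadipose lines was lost with scaling before the pseudocount (adjusted p = 0.0674). Swiss 22 exceeded Swiss 5 by 0.47 ± 0.092 SE on the log2 scale (adjusted p = 0.0206), a pair both on bright arrays for which 0.799% of all probe sets were called. Swiss 2 exceeded Swiss 8 by 0.38 ± 0.092 SE (adjusted p = 0.0194), a pair both on dim arrays with 5.89% called, and Swiss 9 by 0.34 ± 0.092 SE (adjusted p = 0.0279; 8.77% called). Of the 21 line pairs, 8 were called on 1451332_at. The order of lines was Swiss 22, Swiss 2, Swiss 19, Swiss 3, Swiss 9, Swiss 8 and Swiss 5, and no neighbouring pair in it passed. Swiss 3 gave 540.6 on its dim and 517.5 on its bright array. The second probe set, 1439909_at, was dimmer, at 264.9 ± 51.7 against 301.6 ± 52.9, and was not called in any of the 3 F tests. Its log2 difference was -0.08 (adjusted p = 0.782), and 0.0023 within the dim and -0.05 within the bright arrays. Over the 7 line means the probe sets correlated at r = 0.84, and by scaled intensity Swiss 22 and Swiss 2 led both. Divided by control background, 1451332_at stood at 5.20 for Swiss 2, whose background was the highest (144.4). Swiss 8 (4.73) and Swiss 3 (5.03) were lower, and Swiss 5 (5.29), Swiss 9 (5.68), Swiss 19 (9.515) and Swiss 22 (9.91) higher. On 1439909_at Swiss 2 stood at 2.31, over only Swiss 8 (2.215), and Swiss 22 (4.22) led. The part of background in the calls of Swiss 2 over Swiss 8 and Swiss 9 was not tested.

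**Figure D2:**
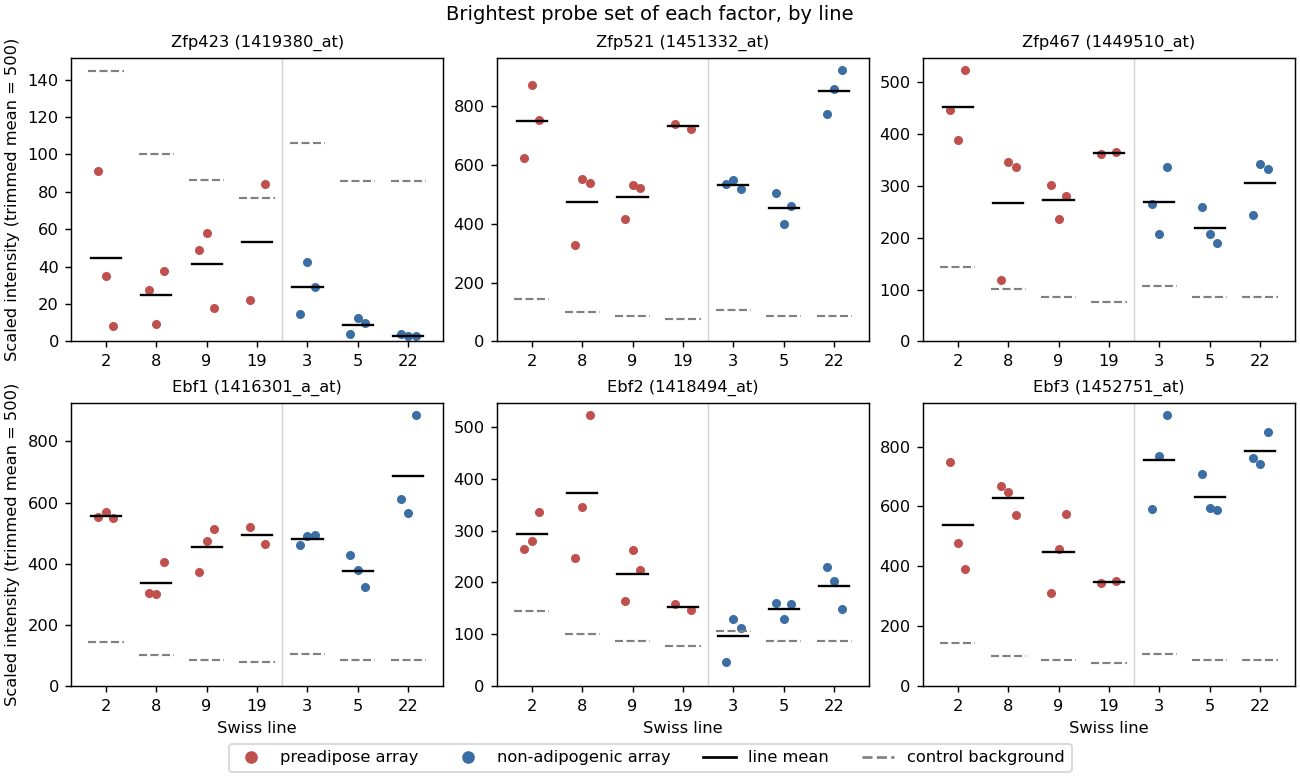
Scaled intensity (y axis, array trimmed mean set to 500) of the brightest probe set of each of the 6 factors in the 7 lines (x axis). Points are arrays, bars are line means and dashed lines the control background; Zfp521 is highest in Swiss 22, Swiss 2 and Swiss 19, Ebf2 in Swiss 8, and Zfp423 lies under background.

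Zfp467 was measured by 3 probe sets, all above background in every line, and none was called between classes or by an F test among lines. The brightest, 1449510_at, read 445.9, 389.5 and 524.6 in Swiss 2, 118.0, 345.5 and 336.3 in Swiss 8, 301.5, 235.5 and 279.7 in Swiss 9, and 362.4 and 365.9 in Swiss 19. Non-adipogenic arrays read 265.7, 207.4 and 336.2 in Swiss 3, 259.7, 207.2 and 190.0 in Swiss 5, and 244.6, 341.6 and 331.9 in Swiss 22. Swiss 2 exceeded Swiss 5 by 0.39 ± 0.11 SE (limma, adjusted p = 0.0250; 12.2% of all probe sets called) and Swiss 3 by 0.37 ± 0.11 SE (adjusted p = 0.0312; 15.7% called). These were the only 2 of 21 line pairs called on 1449510_at. Swiss 2 was on dim and Swiss 5 on bright arrays, so line and brightness cannot be told apart in that pair. On this probe set 1 array of Swiss 8 was low, and the classes overlapped, at 339.1 ± 88.3 against 264.9 ± 43.7. This gave a log2 difference of 0.13 (adjusted p = 0.650), or -0.0014 with arrays centred on their medians, and 0.24 within the dim and 0.12 within the bright arrays. The other probe sets, 1419564_at and 1441727_s_at, differed by 0.01 (adjusted p = 0.984) and -0.015 (adjusted p = 0.973). Within the dim arrays they differed by -0.12 and 0.0065, and within the bright arrays by -0.0002 and 0.065. That same first array of Swiss 8 read 22.0 on 1441727_s_at, the only value of Zfp467 under background. The 3 probe sets did not rank the lines alike: correlations over 7 line means ran from 0.22 to 0.63, and by normalized log2 means Swiss 3 was the highest line on 1419564_at, Swiss 19 on 1441727_s_at and Swiss 2 on 1449510_at.

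Ebf1 was above background in all lines on 4 of its 5 probe sets. The brightest, 1416301_a_at, read 554.0, 568.4 and 549.2 in Swiss 2, 304.7, 300.1 and 405.7 in Swiss 8, 372.1, 473.0 and 514.5 in Swiss 9, and 520.7 and 464.5 in Swiss 19. It read 460.1, 489.8 and 495.2 in Swiss 3, 426.9, 380.8 and 323.2 in Swiss 5, and 613.1, 564.9 and 886.4 in Swiss 22. As for Zfp521, by scaled intensity Swiss 22 and Swiss 2 led and Swiss 8 and Swiss 5 were last. Swiss 2 had the highest control background, and divided by it this probe set stood at 3.86 there. That was over Swiss 8 (3.36) and under all other lines, with Swiss 5 at 4.39 and Swiss 22 at 8.03. Preadipose lines averaged 459.96 ± 92.6 (SD, n = 4 lines) and non-adipogenic lines 515.6 ± 158.4 (SD, n = 3 lines), with a log2 difference of -0.06 (adjusted p = 0.919), 0.0006 within the dim and -0.05 within the bright arrays. The probe set was called over all lines (limma F test, adjusted p = 0.00583) and among non-adipogenic lines (adjusted p = 0.0121). Without the third array of Swiss 22 the call among non-adipogenic lines was lost (adjusted p = 0.0790), and that over all lines held whichever array was left out. Swiss 22 exceeded Swiss 5 by 0.40 ± 0.089 SE (limma, adjusted p = 0.0406; 0.799% of all probe sets called). Swiss 2 exceeded Swiss 8 by 0.35 ± 0.089 SE (limma, adjusted p = 0.0259; 5.89% called). On this probe set 3 of 21 line pairs were called.

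The other probe sets of Ebf1 agreed on Swiss 22 in part. On 1439789_at, Swiss 22 stood at 602.7 ± 23.3 (SD, n = 3 arrays), against 324.6 to 418.5 in the other 6 lines, and the F test called it over all lines (adjusted p = 0.0134) and among the non-adipogenic lines (adjusted p = 0.0307). On 1448293_at, Swiss 22 stood at 632.1 ± 49.5 (SD, n = 3 arrays), against 296.1 to 443.5, with a call among the non-adipogenic lines (adjusted p = 0.0445) but not over all lines (adjusted p = 0.0554). These probe sets correlated at r = 0.87 over the line means. Both were sensitive to single arrays. The call of 1439789_at over all lines was lost without the first or the third array of Swiss 22 (adjusted p = 0.0709 and 0.0608) as it was when scaling came first (adjusted p = 0.0503). Among non-adipogenic lines its call was lost without any 1 array of Swiss 22 or the second array of Swiss 3 or Swiss 5, with adjusted p of 0.0541 to 0.117. That of 1448293_at was lost in 13 of 20 such refits and with scaling first (adjusted p = 0.151). On 1416302_at the highest line by scaled intensity was Swiss 2, at 509.8 ± 115.97 (SD, n = 3 arrays), against 334.9 in Swiss 22. Divided by control background, this probe set stood at 3.53 in Swiss 2 and 3.91 in Swiss 22. It was called over all lines (adjusted p = 0.0301) and among preadipose lines (adjusted p = 0.0268), with both calls lost on scaling before the pseudocount (adjusted p = 0.0773 and 0.0788). Both were also lost without array 1 or 3 of Swiss 2 or array 2 of Swiss 19, with adjusted p of 0.0504 to 0.149. Its correlation with 1439789_at was -0.19. The class differences of these 3 probe sets were -0.16 (adjusted p = 0.515), -0.18 (adjusted p = 0.586) and 0.08 (adjusted p = 0.860) in the order given. Within the dim arrays they were -0.05, -0.19 and 0.16, and within the bright arrays -0.09, -0.13 and -0.07. The fifth, 1457441_at, was above background only in Swiss 3, at 189.2 ± 101.0 (SD, n = 3 arrays). The 2 dim arrays of Swiss 3 averaged 242.7 and its bright array 82.3. On this probe set alone of the 17 the classes had no overlap of normalized line means, with preadipose lines lower (log2 difference -0.10, adjusted p = 0.550; -0.33 within the dim and -0.07 within the bright arrays). As it was under background in the other 6 lines, the order of those lines carries no information, and its scaled line means did overlap. Of all probe sets 11.6% had no overlap, 6.14% lower and 5.41% higher in preadipose lines. On scaled means 2 of the 17 had none, Ebf3 1452751_at, lower in preadipose lines, and Ebf2 1449102_at, higher, beside 10.7% of all probe sets. Both shares are of the size of, or under, that over all probe sets.

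All 3 probe sets of Ebf2 had higher means in preadipose lines, without a class call, and all crossed the background between lines. On 1418494_at arrays read 263.5, 280.7 and 336.1 in Swiss 2, 247.0, 345.5 and 523.1 in Swiss 8, 163.0, 262.3 and 223.0 in Swiss 9, and 158.9 and 146.0 in Swiss 19. They read 46.7, 129.9 and 111.6 in Swiss 3, 159.3, 129.4 and 158.7 in Swiss 5, and 229.4, 202.5 and 148.4 in Swiss 22. Swiss 8 was highest and Swiss 3 lowest and under background, while Swiss 19 lay among the non-adipogenic lines. Preadipose lines averaged 258.5 ± 95.1 (SD, n = 4 lines) and non-adipogenic lines 146.2 ± 48.7 (SD, n = 3 lines), at least 1.73-fold higher with Swiss 3 set to its background. On the log2 scale they differed by 0.23 with an interval of -0.034 to 0.48 (limma, adjusted p = 0.480), and with scaling before the pseudocount 0.68 with an interval of -0.034 to 1.39 (adjusted p = 0.497). The other probe sets, 1449101_at and 1449102_at, differed by 0.13 (adjusted p = 0.716) and 0.09 (adjusted p = 0.616). Within the dim arrays these were 0.32 and 0.15, and within the bright arrays 0.0002 and 0.09. Without normalization between arrays all 3 differences turned negative, at -0.04, -0.047 and -0.02, where the median of all probe sets was -0.12.

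On 1418494_at the class difference had a larger value within the dim than within the bright arrays, a gap that was not itself tested. Within the dim arrays, Swiss 2, Swiss 8 and Swiss 9 against the dim arrays of Swiss 3, it was 0.48 (adjusted p = 0.166). Within the bright arrays, Swiss 19 against Swiss 5, Swiss 22 and the bright array of Swiss 3, it differed by 0.01 (adjusted p = 0.999). The part of brightness in this result was not tested. Between lines the probe set was called over all 7 (F test, adjusted p = 0.00314, and whichever array was left out), but neither among the preadipose nor among the non-adipogenic lines. In the fit Swiss 8 exceeded Swiss 3 by 0.61 ± 0.10 SE on the log2 scale (limma, adjusted p = 0.000185). For this pair 17.7% of all probe sets were called. In scaled intensity, which that p-value does not test, Swiss 8 was at least 3.01-fold above Swiss 3. The bound took each array of Swiss 3 at the higher of its value and its own background, which 1 of the 3 exceeded. Swiss 8 also exceeded Swiss 19 by 0.42 ± 0.11 SE (limma, adjusted p = 0.0276; 7.22% called) and Swiss 5 by 0.42 ± 0.10 SE (limma, adjusted p = 0.0114; 7.68% called). Swiss 8 was on dim and both other lines on bright arrays, so line and brightness cannot be told apart there. Of the 21 line pairs, 5 were called on 1418494_at. The 3 probe sets correlated at 0.52 to 0.73 over the line means, and Swiss 3 gave the lowest mean on all of them, under background each time.

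Ebf3 leaned the other way, with all 3 probe sets brighter in non-adipogenic lines, again without a class call. On 1452751_at preadipose arrays read 746.6, 477.2 and 389.3 in Swiss 2, 669.7, 647.9 and 571.1 in Swiss 8, 309.7, 456.5 and 575.1 in Swiss 9, and 342.9 and 349.5 in Swiss 19. Non-adipogenic arrays read 590.5, 767.2 and 905.3 in Swiss 3, 708.1, 593.2 and 588.6 in Swiss 5, and 762.9, 741.2 and 848.6 in Swiss 22. Swiss 19 was lowest and Swiss 22 and Swiss 3 highest, and Swiss 8 met Swiss 5 at the border, at 629.6 against 630.0. Preadipose lines averaged 490.1 ± 121.5 (SD, n = 4 lines) and non-adipogenic lines 722.9 ± 81.8 (SD, n = 3 lines), 1.47 times as high in non-adipogenic lines. The log2 difference was -0.30 with an interval of -0.55 to -0.063 before adjustment (limma, adjusted p = 0.270).

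The second probe set of Ebf3, 1460666_a_at, gave the same picture. Arrays read 297.3, 393.0 and 499.98 in Swiss 2, 546.2, 506.9 and 637.9 in Swiss 8, 396.6, 406.9 and 403.0 in Swiss 9, and 314.4 and 350.1 in Swiss 19. They read 575.7, 762.2 and 521.7 in Swiss 3, 589.1, 553.3 and 545.5 in Swiss 5, and 708.6, 635.4 and 525.3 in Swiss 22. No array of Swiss 2, Swiss 9 or Swiss 19 reached the lowest non-adipogenic array, while Swiss 8 overlapped that class. Its log2 difference was -0.25 with an interval of -0.46 to -0.047 (adjusted p = 0.285). It passed only in the fit of arrays that took the line as a random effect (-0.24, adjusted p = 0.0415), a fit that called 1686 of all probe sets higher and 1959 lower. On 1428349_s_at the difference was -0.16 (adjusted p = 0.581), with -0.11 within the dim and -0.27 within the bright arrays. For 1452751_at the difference was -0.17 within the dim and -0.60 within the bright arrays, and for 1460666_a_at -0.28 and -0.37, so both parts had the same sign on all 3. Every setting tried kept the sign of all 3.

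Among lines, 1452751_at and 1460666_a_at were called over all 7 lines (F test, adjusted p = 0.0178 and 0.00623) and within neither class. The call of 1452751_at was lost without either array of Swiss 19 (adjusted p = 0.0685 and 0.0657), and that of 1460666_a_at held whichever array was left out. Swiss 19 was below Swiss 22 by 0.60 ± 0.14 SE on 1452751_at (log2 -0.60, adjusted p = 0.0104) and by 0.44 on 1460666_a_at (log2 -0.44, adjusted p = 0.0127). This pair lies on bright arrays, and 6.35% of all probe sets were called for it. Swiss 8, though preadipose, exceeded Swiss 19 by 0.39 on 1460666_a_at (limma, adjusted p = 0.0279; 7.22% of all probe sets called). That pair crosses from dim to bright arrays, so line and brightness cannot be told apart in it. Of the 21 line pairs, 4 were called on 1452751_at and 6 on 1460666_a_at. The 3 probe sets ranked the lines much alike, at r = 0.78, 0.86 and 0.95 over the line means.

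**Figure D3:**
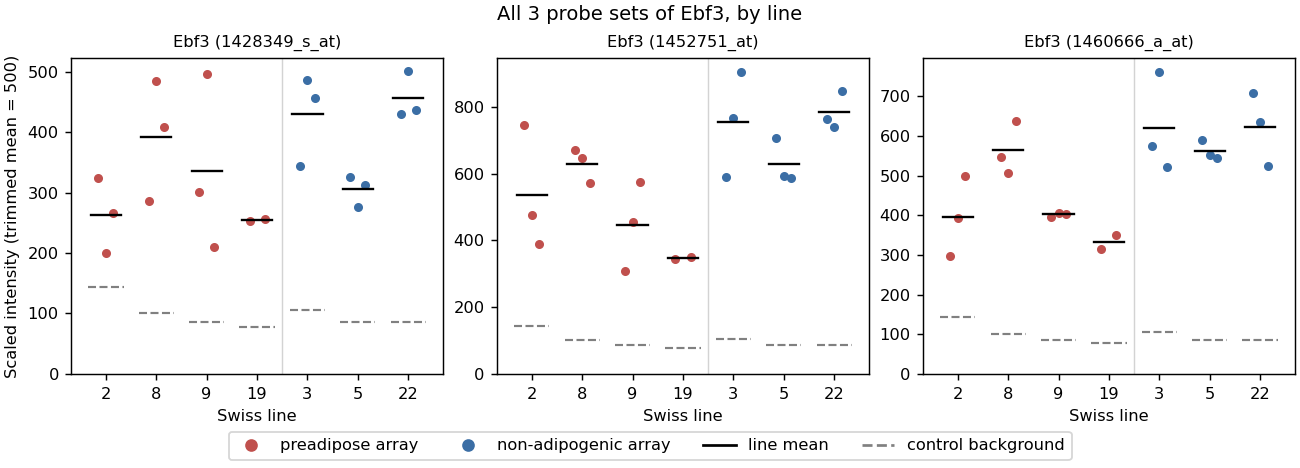
Scaled intensity (y axis) of the 3 probe sets of Ebf3 in the 7 lines (x axis), with arrays as points, line means as bars and the control background dashed. Swiss 19 has the lowest line mean on all 3, Swiss 22 is highest on all 3, and Swiss 8 lies at the level of the non-adipogenic lines on 1452751_at and 1460666_a_at.

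In the class fit over the line means, none of the 17 probe sets was called higher or lower (limma, Benjamini-Hochberg adjusted p below 0.05). Over all 45037 probe sets 0.819% were called, 0.275% higher and 0.544% lower in preadipose lines. At an unadjusted p below 0.05 there were 2 of the 17, both of Ebf3, a share of the size found over all probe sets, 12.6%. Differences were positive for 8 and negative for 9 probe sets, where 47.1% of all were negative, with a median of -0.015 against 0.0055 over all probe sets. With scaling before the pseudocount none was called either, where 0.204% of all were, and 3 had an unadjusted p below 0.05. The overall split of 124 higher and 245 lower became 0 and 3 with arrays centred on their medians and 0 and 2 without normalization.

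**Figure D4:**
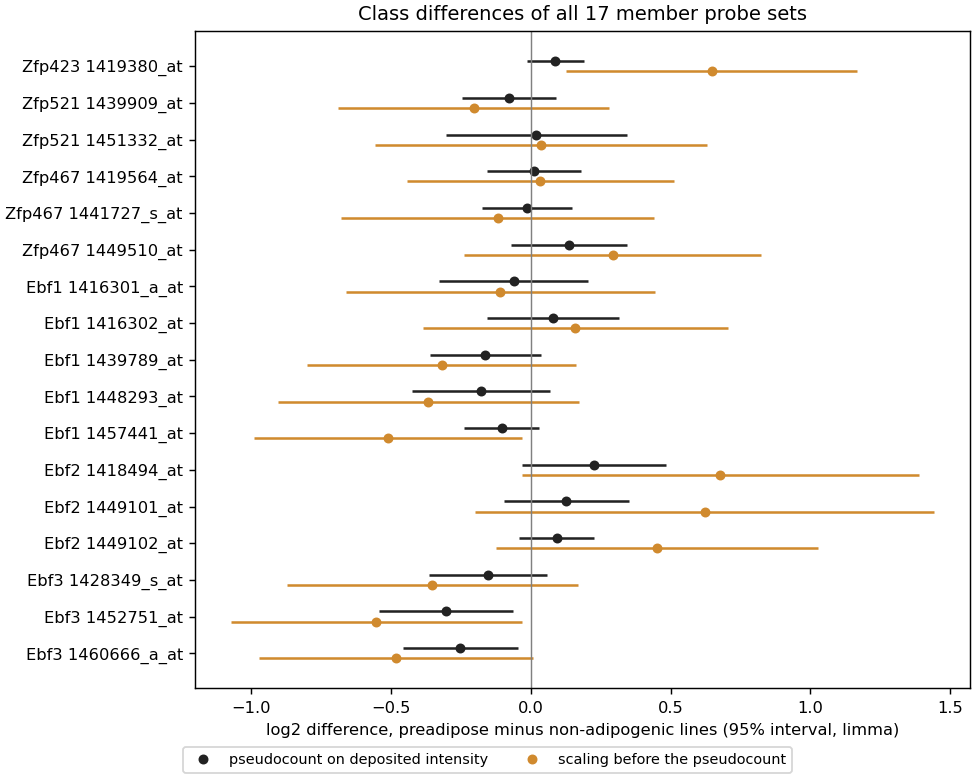
Log2 difference of preadipose minus non-adipogenic lines with its 95% interval before adjustment (x axis, limma on 7 line means) for the 17 member probe sets, with the pseudocount on deposited intensity (black) and with scaling before it (orange). Ebf2 probe sets lie right of 0 and Ebf3 probe sets left of 0 in both, and none passed after adjustment.

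Between lines, 7 of the 17 probe sets were called over all 7 lines, beside 25.2% of all probe sets. Among preadipose lines 2 were called, beside 15.3%, and among non-adipogenic lines 4, beside 11.1%. With scaling before the pseudocount these counts were 5, 0 and 2, beside 18.8%, 8% and 6.28% of all probe sets. The probe sets called over all lines were 1 of Zfp521, 3 of Ebf1, 1 of Ebf2 and 2 of Ebf3. The median share of the sum of squares over arrays was 14.2% for the class, 41.5% for the lines inside it and 43.8% for the arrays of each line. Zfp521 on 1451332_at had 0.046% between classes and 80.4% between lines inside them, and Ebf3 on 1460666_a_at had 42.2% between classes, the largest share among the 17.

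**Figure D5:**
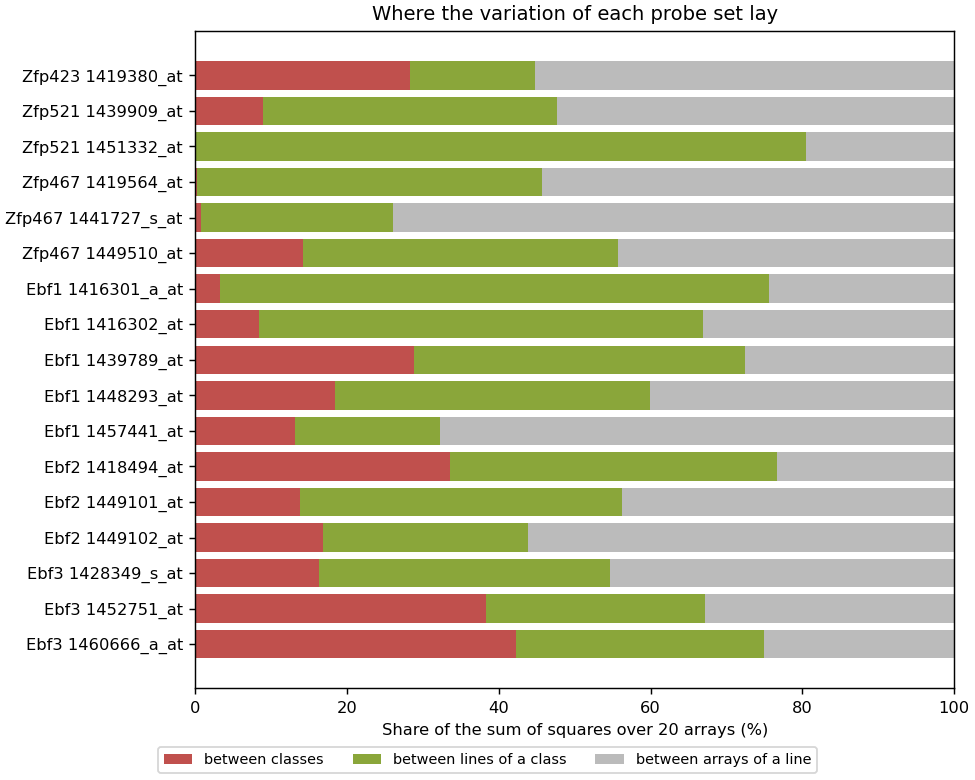
Share of the sum of squares over 20 arrays (x axis, percent) taken by the class (red), the line inside its class (green) and the array (grey), for the 17 member probe sets. The class share is near 0 for Zfp521 1451332_at and is largest for Ebf3 1460666_a_at, at 42.2%.

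The line patterns most like those of the factors were looked up among 1394 probe sets that were above background and ranged by at least 1 on the log2 scale. The measure was Pearson's r over the 7 line means, which share normalization and the array brightness, and it is given as a description. For Zfp521 the closest were Cdc42bpb (0.87), a kinase activated by Cdc42, Dlk1 (0.84), a surface protein known as a preadipocyte factor, and Cd248 (0.79), a stromal surface glycoprotein. Zfp467 shared Cdc42bpb (0.93) and Dlk1 (0.88) and added Prelp (0.91), a matrix proteoglycan. For Ebf1 the highest values were lower, with Lrrc17 at 0.72, Xist, the noncoding RNA of the inactive X chromosome, at 0.70 and Dram1, a lysosomal membrane protein, at 0.69. Ebf2 was closest to Ahcy (0.97), which hydrolyses S-adenosylhomocysteine, Fam111a (0.96) and Rrbp1 (0.95), a ribosome-binding protein of the endoplasmic reticulum. Ebf3 was closest to Rab32 (0.98), a small GTPase, Pik3r1 (0.92), the regulatory subunit of PI3 kinase, and Pdp1 (0.92), a phosphatase of pyruvate dehydrogenase.

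Ebf4, the remaining EBF gene, has 1 named probe set, 1435044_at. Swiss 2 averaged 27.96, Swiss 8 45.3, Swiss 9 24.1 and Swiss 19 84.8. Among the non-adipogenic lines, Swiss 3 averaged 428.1, Swiss 5 169.9 and Swiss 22 87.0. It was above background in 1 of 4 preadipose and 3 of 3 non-adipogenic lines. Swiss 22, at 87.0 against a background of 85.7, and Swiss 19, at 84.8 against 76.9, lay close to it. With dim lines set to background the preadipose lines were at least 2.20-fold lower, without a call (log2 difference -0.42, limma adjusted p = 0.253). That bound rests on Swiss 3 and was 1.24-fold without it. The log2 difference was -0.79 within the dim and -0.31 within the bright arrays.

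Among partners and co-regulators of these factors, 1 of 20 measured genes was called, and it was lower in preadipose lines. Over all 18193 genes, 74 were called higher and 142 lower. Tle3, a Groucho-type corepressor that works with Pparg in fat cells, was 1219 ± 82.8 (SD, n = 4 lines) against 2704 ± 217.7 (SD, n = 3 lines). Every preadipose line lay between 1143 and 1334 and every non-adipogenic line between 2453 and 2831. The log2 difference was -0.87 ± 0.071 SE (limma, adjusted p = 0.00892), and with scaling before the pseudocount the call was lost (adjusted p = 0.0533). It was -0.94 within the dim and -0.93 within the bright arrays, not called in either (adjusted p = 0.0559 and 0.345). The other 3 probe sets of Tle3 differed by -0.25, -0.25 and -0.09, none of them called. In that list 6 genes had an unadjusted p below 0.05, where 16.5% of all genes did, and the median difference was 0.03, against 0.0024 over all genes.

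BMP ligands, receptors, SMADs, their inhibitors and Id targets, the pathway through which Zfp423 works with SMADs, had 0 called of 21. Of these, 18 differences were negative, against 49% of all genes, the median was -0.16, against 0.0024, and 8 genes had an unadjusted p below 0.05, against 16.5%. The sign count takes in genes near or under background: 14 of the 21 were above it in all lines and 2 in none. Id4 and Id2, inhibitors of helix-loop-helix factors, had the largest differences without overlap of line means on the log2 scale of the fit. Id4 was 1434 ± 522.8 against 3421 ± 454.4 (log2 difference -1.03, adjusted p = 0.0853), although another of its 3 probe sets passed (log2 difference -1.15, adjusted p = 0.0483; 0.0947 with scaling first, where the call was lost), and Id2 was 839.6 ± 314.9 against 1762 ± 141.8 (-0.77, adjusted p = 0.111). Within the dim and the bright arrays Id4 differed by -1.07 and -0.64, and Id2 by -0.69 and -1.19. Bmp4, a BMP ligand above background in 5 of 7 lines, was 103.2 ± 84.0 against 344.5 ± 130.2 (log2 difference -0.53, adjusted p = 0.155), and with scaling first its difference of -1.76 (adjusted p = 0.243) had a larger size than those of Id4 and Id2. It was -0.76 within the dim and -0.29 within the bright arrays. Of 14 measured fat cell targets none was called and 4 had an unadjusted p below 0.05. Lpl, lipoprotein lipase, was 3242 ± 1566 against 309.6 ± 218.2, a log2 difference of 2.10 (adjusted p = 0.0560), and passed with scaling before the pseudocount (adjusted p = 0.0274) and on its second probe set (adjusted p = 0.0201). The difference was 1.56 within the dim and 2.76 within the bright arrays. Pdk4, a kinase that restrains pyruvate dehydrogenase, was 2489 ± 412.6 against 4047 ± 245.3 (log2 difference -0.60, adjusted p = 0.0612; -0.72 within the dim and -0.35 within the bright arrays). Pparg, which Zfp423 is known to raise, had line means of 368.2 to 696.8 in preadipose and 245.8 to 473.4 in non-adipogenic lines, which overlapped (log2 difference 0.36, adjusted p = 0.332; 0.32 within the dim and 0.01 within the bright arrays).

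Of 7 measured B lineage targets of Ebf1, none was called and 1 had an unadjusted p below 0.05. Their summed level was 753.5 to 966.0 in preadipose and 848.8 to 1093 in non-adipogenic lines, where Ebf1 itself was above background. Only 2 of the 7 were above background in all lines and 1 was above it in none. The sum therefore holds values near or under background and is not a measure of expressed targets. Blk, a kinase of B cells, was 1 of the 7 without overlap of normalized line means, and it was lower in preadipose lines. Over all 18193 genes, 1156 were higher and 1388 lower without overlap, so 1 of 7 is no more than that share. Blk stood at 185.8 ± 30.1 against 236.3 ± 56.2 (log2 difference -0.12, limma adjusted p = 0.365). Its difference was -0.35 within the dim and 0.03 within the bright arrays. Among the marker lists 1 gene was called, Pdgfra, a receptor of fibroblast progenitors, lower in preadipose lines (log2 difference -2.27, limma adjusted p = 0.00892). It was 1 of 9 fibroblast markers, and none of the 6 mural markers and 36 markers of other cell types was called. Over all 18193 genes, 74 were called higher and 142 lower. The difference of Pdgfra was -2.57 within the dim (adjusted p = 0.0255) and -1.75 within the bright arrays (adjusted p = 0.325). Summed levels of mural markers were 29449 to 77015 in preadipose and 21340 to 39275 in non-adipogenic lines. They were mostly Acta2, the smooth muscle actin, at 44862 ± 19464 against 29254 ± 10481, and 4 of the 6 mural markers had negative differences. Those of neural and glial markers were 1209 to 1497 and 951.6 to 1048. They rested on Tubb3, a neuronal tubulin, at 415.2 ± 57.0 against 189.6 ± 79.1, and Sox10, a neural crest factor, at 383.4 ± 64.7 against 266.1 ± 95.6, with Snap25 and Olig2 above background in no line. Of the 7 neural and glial markers 4 differences were positive and 3 negative, and no marker of either list was called. The part of these cell types in the results was not tested.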

How the data were processed

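The deposited values, made by the authors, were linear probe set intensity values. Per the labels' protocols, total RNA was primed with oligo-dT, copied and transcribed in vitro into biotinylated RNA. How the authors summarized and scaled them is a step not stated in these sources. Mean intensity of the arrays ran from 25.6 to 156.7 and their log2 medians differed by 0.607. Of 45101 probe sets 64 were controls; 34958 had 1 gene symbol, 932 several and 9160 were not named here. Gene identifiers of 34754 matched the RefSeq gene table, which changed 0 symbols. No 2 arrays held identical values.

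Intensities were taken as log2(intensity + 32) and quantile-normalized, since the medians differed by more than 0.2. The added 32 compresses the log2 differences of dim probe sets. A fold of scaled intensity and a fitted log2 difference therefore do not measure the same thing, and p-values belong to the latter. After averaging the arrays of each line, limma 3.58.1 (R 4.3.3) was fitted to the 7 means, adjusted over all probe sets at a threshold of 0.05. Lines were compared by moderated F tests and contrasts on the 20 arrays. Contrasts of the 21 line pairs were adjusted over all probe sets within each pair and not across pairs. For scaled intensity the trimmed mean left out 2% at each end. For lists, a gene was its brightest probe set with 1 symbol. The fits were tested on simulated data. Alternatives were the normalization, the pseudocount, filters, blocks and covariates for brightness, and leaving out lines or arrays. Scaling before the pseudocount, the brightness block that used only the dim arrays of Swiss 3 and the spike covariate were added after the data were seen. The number of lines limits the precision of the class comparison, and the number of arrays that of the line tests.

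Named were all member probe sets, for each member above background the 3 genes with the most similar line means, and from each list up to 4 called genes or, with none called, up to 2 without overlap. Ebf4, Bmp4, Pparg and the other marker genes were named outside this rule, after their values were seen, except as marker checks. The members and lists were chosen with earlier results of these data known.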

Additional observations from a re-analysis of the deposited data

How the results depend on the processing

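None of the 17 probe sets was called in the class comparison under any setting but 1: the line as a random block gave 1 lower. Over 226 refits with other settings 25 turned sign, over 119 with a line left out 12, over 340 with an array left out 7, and none of the refits that left out a line or an array called a probe set.

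The turned signs were these. With arrays centred on their medians: Zfp521 1451332_at -0.26, Zfp467 1419564_at -0.049 and 1449510_at -0.0014, Ebf1 1416302_at -0.12. Without normalization between arrays: the same in order -0.38, -0.18, -0.13 and -0.24, and Ebf2 1418494_at -0.0403, 1449101_at -0.047 and 1449102_at -0.0201. Within the dim arrays: Zfp521 1439909_at 0.0023, Zfp467 1419564_at -0.12 and 1441727_s_at 0.0065, Ebf1 1416301_a_at 0.0006. Within the bright arrays: Zfp467 1419564_at -0.0002 and 1441727_s_at 0.065, Ebf1 1416302_at -0.074. For Zfp467 1419564_at and 1441727_s_at: -0.062 and 0.036 with brightness as a block, -0.0195 and 0.0478 when that block used only the dim arrays of Swiss 3, -0.0499 and 0.0385 with the spike covariate, which also gave Ebf1 1416302_at -0.037. The cause was not tested. With a line left out the lowest and highest values were -0.071 and 0.16 for Zfp521 1451332_at, -0.034 and 0.0904 for Zfp467 1419564_at, -0.053 and 0.034 for Zfp467 1441727_s_at, -0.15 and 0.054 for Ebf1 1416301_a_at and -0.0067 and 0.14 for Ebf1 1416302_at. With an array left out they were -0.013 and 0.038 for Zfp467 1419564_at and -0.046 and 0.035 for Zfp467 1441727_s_at.

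Over all probe sets, calls higher and lower were 261 and 404 when probe sets above background in no line were left out, 1686 and 1959 with a random block for the line, 61 and 88 within the dim arrays, 0 and 0 within the bright arrays, 149 lower in the brightness block that used only the dim arrays of Swiss 3, 46 and 60 with the spike covariate, 38 and 54 with scaling before the pseudocount, 0 and 3 with median centring and 0 and 2 without normalization. With a line left out they ran from 14 to 224 and from 32 to 399. Among partners, the filter gave 1 higher, and centring and scaling first gave 0 lower. The filter gave 2 lower BMP genes and 1 higher and 1 lower fat cell target, scaling first 1 higher fat cell target, and centring 0 lower markers. With a line left out BMP genes had 0 to 1 lower, and fat cell targets 0 to 1 higher and 0 to 2 lower.

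Line tests called 15, 9 and 12 of the 17 probe sets over all, preadipose and non-adipogenic lines with median centring, where 72.8%, 63.8% and 53.6% of all probe sets were called, and 17, 15 and 14 without normalization, where 66.5%, 62% and 50.9% were. They called 5, 0 and 2 with scaling first, beside 18.8%, 8% and 6.28%, and 5 to 9, 1 to 3 and 1 to 5 with an array left out. Probe sets above background in no line numbered 0 with the 75th percentile as background, 2 when every array had to pass, and 0 to 1 with an array left out.

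Replicate numbers did not pair the arrays: correlations of same-numbered arrays of different lines had a median of -0.0007 and 3 of 20 arrays matched their own number best. With the replicate number as a block, 123 probe sets were called higher and 231 lower, none of them members, and the line tests called 7, 3 and 3 members, beside 24.5%, 14.4% and 10.7% of all probe sets.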
